A study of Rattus norvegicus with 3 samples.

Results

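Kidney RNA of male Sprague-Dawley rats was examined for the genes of the collagens, laminins and matrix glycoproteins. The list holds 36 rat genes, 16 of the interstitial matrix, 19 of the basement membrane and Col8a1, which was put in neither class. Their probes were found by RefSeq accession among the probes of the array that are not controls, and 23 of the 36 genes had at least 1 probe. Of these 23 genes, 19 passed the filter on dim probes (10 interstitial, 9 basement membrane), out of 14179 genes tested on the arrays. Only 8908 of the 14179 had a matched symbol, and the shares of all genes include those without one.

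The rats were 5 weeks old at purchase and were acclimated for 1 week. The G200 group then drank water with 200 ppm γ-aminobutyric acid (GABA) for 3 weeks, and the control group drank water without GABA, with all else given as alike. RNA came from a kidney region that the labels call non-tumor, and the labels count 3 rats a group. On each of 3 arrays with 2 colours, control RNA was labelled with Cy3 and G200 RNA with Cy5. The dyes were swapped on no array, so dye and treatment cannot be told apart. All 3 arrays lay on 1 slide and were read in 1 scan. Over 1254 probes with replicate spots, the variance between arrays was 0.716 times that expected from the spots in the control channel and 5.98 times in the G200 channel (medians). The control was therefore counted as 1 sample, and the tests leave out the spread between control rats.

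The extracellular matrix of the kidney has 2 main forms. The interstitial matrix lies between tubules and vessels, is laid down mostly by fibroblasts and mural cells, and is built of fibrillar collagens with fibronectin, elastic fibres and collagen VI. Basement membranes are thin sheets under epithelium and endothelium, made of a laminin network and a collagen IV network that nidogens and heparan sulfate proteoglycans join, and the glomerular basement membrane is part of the filter that makes urine. Interstitial collagen builds up in kidney fibrosis, and inherited defects of collagen IV or laminin chains cause leaky glomeruli.

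Values are log2 ratios of G200 over control, so a value above 0 means a higher signal in G200. A gene was called when its limma p, adjusted over all 14179 genes by the Benjamini-Hochberg method, was under 0.05. Of the 19 genes tested, 1 was called higher (Fbn1) and 2 were called lower (Col14a1 and Col18a1). That is 15.8% of the matrix genes, against 37.5% of all genes (11.6% higher and 25.9% lower). No matrix gene had an unadjusted p under 0.05 together with a 2-fold change, a criterion that 4.06% of all genes met. The median log2 ratio of the 19 genes was -0.01, against -0.05 for all genes. The 3 arrays gave the same sign for 42.1% of the matrix genes and for 68.3% of all genes. For each of the 19 genes the limma 95% confidence interval of the mean lay within a 2-fold change in both directions, as it did for 13266 of the 14179 genes. After loess the matrix genes thus lay close to the control as a group, with a few single genes apart.

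These directions depend on how the dyes were normalized. The loess fit removes a trend of the ratio with spot brightness, and median centring leaves that trend in. Median centring moved the median of all genes from -0.05 to 0.27, a shift that each mean given after it holds unless it is called relative, and it called 10 matrix genes higher and none lower (Col1a1, Col1a2, Col3a1, Col6a2, Fbn1, Col4a1, Lamc1, Nid2, Agrn and Col15a1). Among all genes called, 30.8% were higher after loess, 80% after median centring and 96.3% with no dye normalization. Relative to the median of all genes, 10 of the 19 matrix genes lay above it after loess and 17 after median centring.

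**Figure D1:**
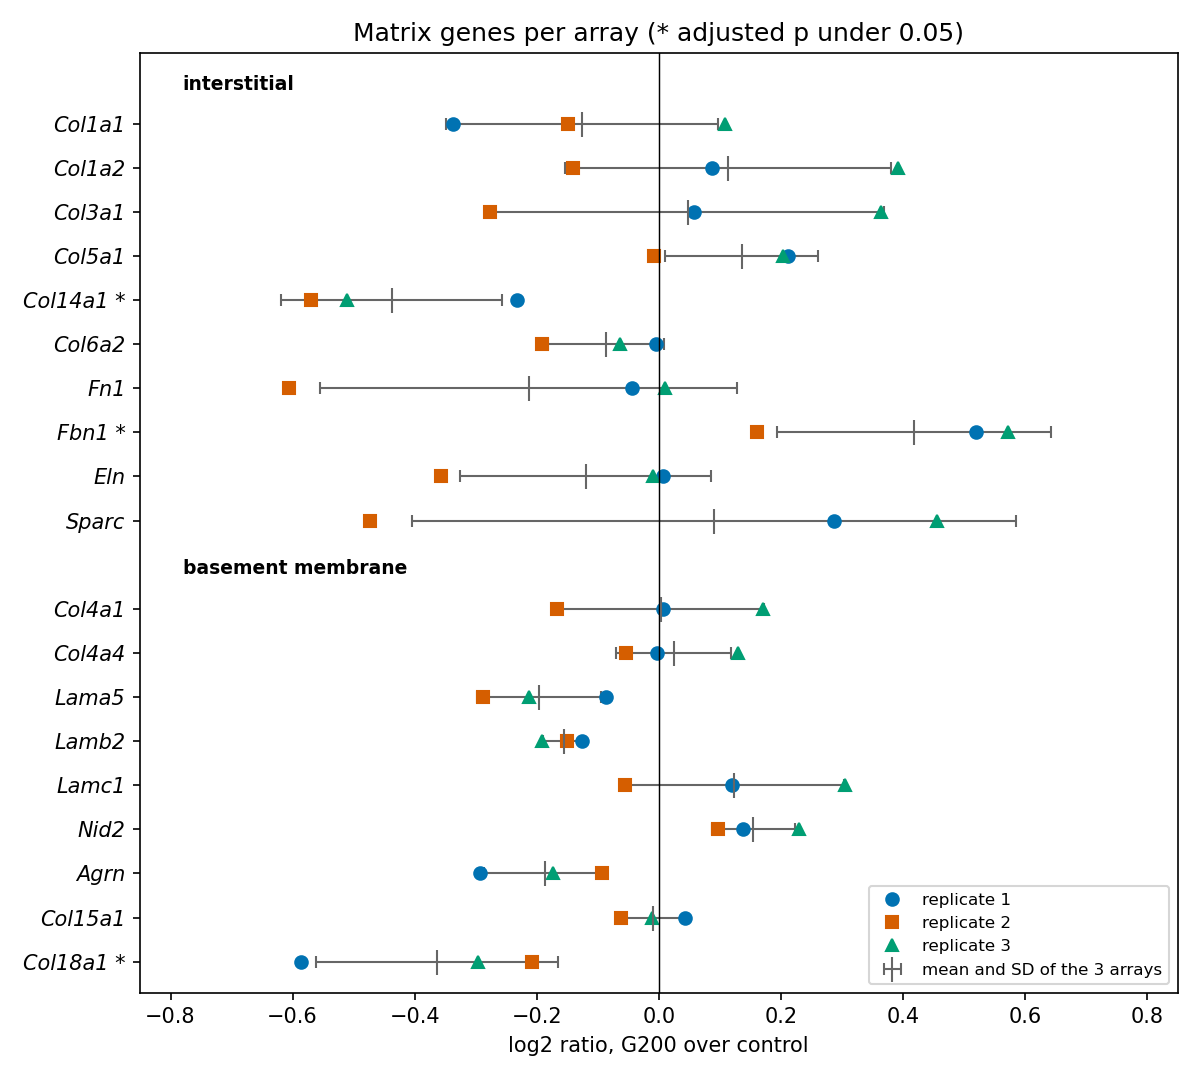
Log2 ratio of G200 over control (x axis) for the 19 matrix genes tested, with 1 symbol per array and the mean and SD of the 3 arrays as a tick and bar. Stars mark Fbn1, Col14a1 and Col18a1, the genes with a limma adjusted p under 0.05, and replicate 2 is the lowest of the 3 arrays for 15 of the 19 genes.

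The fibrillar collagens carry the tensile load of the interstitium. Col1a1 and Col1a2 encode the 2 chains of collagen I. The log2 ratios of Col1a1 were -0.34, -0.15 and 0.11 on replicates 1, 2 and 3 (mean -0.13, SD 0.22, adjusted p = 0.341 by limma). Those of Col1a2 were 0.09, -0.14 and 0.39 (mean 0.11, SD 0.27, adjusted p = 0.438 by limma). Neither gene kept 1 sign over the arrays. A second, dimmer probe of Col1a1 did, with ratios of -0.53, -0.42 and -0.27, so the 2 probes of this gene disagree. The mean over both probes was -0.27, with an adjusted p of 0.0519 by limma.

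Col3a1 encodes collagen III, which forms the fine reticular fibres around tubules and vessels. Its ratios were 0.06, -0.28 and 0.36 (mean 0.05, SD 0.32), which again fall on both sides of 0. Col5a1 encodes a chain of collagen V, which starts collagen I fibrils, and it had ratios of 0.21, -0.01 and 0.20 (mean 0.14, SD 0.12). None of these 4 fibrillar collagen genes was called. With the deposited ratio in place of loess, Col5a1 was called higher (mean 0.55, adjusted p = 0.0437 by limma). Col5a2, the partner chain of Col5a1, had no matched probe.

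Col14a1 fell, and it was the lowest of the matrix genes. It encodes collagen XIV, which sits on the surface of collagen I fibrils. The ratios were -0.23, -0.57 and -0.51 on replicates 1, 2 and 3, lower in G200 on all 3 arrays. The mean was -0.44 (SD 0.18), or 0.738-fold, with an adjusted p of 0.0121 by limma. With the deposited ratio, made with other background and dye steps, the mean was -1.10. A second Col14a1 probe was not well above background on any array. Without replicate 3 the mean was -0.40 and the adjusted p was 0.0962 by limma. Median centring ended the call (mean -0.25, adjusted p = 0.195 by limma), though the gene lay further below the median of all genes than after loess (relative log2 ratios -0.52 and -0.39). Col12a1, which encodes the related collagen XII, had no matched probe.

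Collagen VI forms beaded filaments around cells. Of its 3 listed chains only Col6a2 had a matched probe, and Col6a1 and Col6a3 had none. Col6a2 had ratios of -0.00, -0.19 and -0.06 (mean -0.09, SD 0.10) and was not called. Its values lay near 0 on replicates 1 and 3.

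Fbn1 rose, and after loess it was the highest of the matrix genes. It encodes fibrillin-1, the protein of microfibrils, which carry elastin and bind latent TGF-beta. The ratios were 0.52, 0.16 and 0.57 on replicates 1, 2 and 3, higher in G200 on all 3 arrays. The mean was 0.42 (SD 0.22), or 1.34-fold, with an adjusted p of 0.0196 by limma. The signal was well above background in G200 on 3 arrays and in control on 2, so the gene passed the filter through the G200 channel, where it is the higher. Under a filter on both colours it was not tested. After median centring it was called higher too (mean 0.54, adjusted p = 0.0369 by limma), but Col1a2 was the highest there (mean 0.86). Relative to the median of all genes Fbn1 was at 0.27, against 0.47 after loess. With the deposited ratio the mean was 1.46. Without replicate 3 the mean was 0.34 and the adjusted p was 0.137 by limma.

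Eln encodes elastin, the core of the fibres that microfibrils surround. It had ratios of 0.01, -0.36 and -0.01 (mean -0.12, SD 0.21), so only replicate 2 lay away from 0. Fn1 encodes fibronectin, onto which cells assemble new matrix, and had ratios of -0.04, -0.61 and 0.01 (mean -0.21, SD 0.34). The same array stood apart. Sparc encodes a glycoprotein that binds collagen and is found in both kinds of matrix. Its ratios were 0.29, -0.47 and 0.46 (mean 0.09, SD 0.49), the widest spread of the matrix genes. Without replicate 2 the mean of Sparc was 0.37 and it was called higher (adjusted p = 0.0316 by limma). Tnc (tenascin-C, a glycoprotein of remodelling matrix) and Mfap4 (a microfibril protein) were not well above background on any array in either colour.

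Collagen IV chains form the network of every basement membrane. Col4a1 and Col4a2 encode the chains found throughout the kidney, and Col4a3, Col4a4 and Col4a5 encode those of the mature glomerular basement membrane. The first 4 of these genes lie in pairs, head to head, and each pair shares the DNA between its start sites. Those bases are shown because 1 gene of each pair was measured here. The sequences come from the RefSeq promoter table (build GRCr8), which held 26 of the 36 genes, and they stop before each start site. Capitals mark GGGCGG on either strand (CCGCCC on the printed one), a GC box.
Col4a1 and Col4a2: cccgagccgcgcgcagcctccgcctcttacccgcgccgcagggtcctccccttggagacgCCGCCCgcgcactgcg
Col4a3: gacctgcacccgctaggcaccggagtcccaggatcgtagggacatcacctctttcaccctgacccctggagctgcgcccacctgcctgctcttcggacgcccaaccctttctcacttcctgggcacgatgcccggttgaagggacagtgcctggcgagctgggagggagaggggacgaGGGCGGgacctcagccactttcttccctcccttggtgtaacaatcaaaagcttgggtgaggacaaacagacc
Col4a4: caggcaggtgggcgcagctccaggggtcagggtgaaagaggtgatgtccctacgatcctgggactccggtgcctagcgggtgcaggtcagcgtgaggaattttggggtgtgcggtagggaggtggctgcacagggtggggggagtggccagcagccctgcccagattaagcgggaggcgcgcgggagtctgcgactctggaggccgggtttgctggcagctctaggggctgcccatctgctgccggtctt

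The first sequence is all 76 bases between the start sites of Col4a1 and Col4a2, at chr16:84885521-84885596, printed on the + strand, which Col4a1 is read from. The other 2 are the 250 bases before Col4a3 (chr9:91323740-91323989, + strand) and before Col4a4 (chr9:91323578-91323827, - strand). The start sites of Col4a3 and Col4a4 are 412 bases apart, so these windows share 88 bases. The CCAAT box (searched as CCAAT), the GC box (GGGCGG) and the TATA box (TATAAA) were looked for on both strands. The short interval and the Col4a3 window held 1 GGGCGG each, the Col4a4 window held none of the 3 motifs, and CCAAT and TATAAA were in none of these windows. Of the 33465 promoters (33469 in the table) whose 250 bases were all known, 30.5% held GGGCGG in that window, 34.0% CCAAT and 12.9% TATAAA. In the last 76 bases the shares were 18.1%, 13.0% and 4.61%.

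Col4a1 had log2 ratios of 0.01, -0.17 and 0.17 (mean 0.00, SD 0.17, adjusted p = 0.974 by limma). Col4a4 had ratios of -0.00, -0.05 and 0.13 (mean 0.02, SD 0.09, adjusted p = 0.800 by limma). Both genes had values on both sides of 0, and the 95% intervals of the means ran from -0.20 to 0.21 for Col4a1 and from -0.15 to 0.20 for Col4a4. Median centring put Col4a1 at 0.47 and Col4a4 at 0.03 above the median of all genes. Col4a2, Col4a3 and Col4a5 had no matched probe, so nothing can be said of the other gene of each pair.

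Laminins are trimers of an alpha, a beta and a gamma chain, and Lama5, Lamb2 and Lamc1 together encode the main laminin of the glomerular basement membrane. Lama5 had ratios of -0.09, -0.29 and -0.21 (mean -0.20, SD 0.10, adjusted p = 0.0747 by limma). Lamb2 had ratios of -0.13, -0.15 and -0.19 (mean -0.16, SD 0.03, adjusted p = 0.101 by limma). Both were below 0 on all 3 arrays and neither passed the adjusted threshold, though their unadjusted p values of 0.0325 and 0.0493 were under 0.05. So were those of 6 of the 19 matrix genes and of 6962 of the 14179 genes tested. After median centring Lama5 lay 0.03 above the median of all genes and Lamb2 0.17 below it (relative log2 ratio -0.17). Lamc1, the gamma chain, had ratios of 0.12, -0.05 and 0.30 (mean 0.12, SD 0.18, adjusted p = 0.296 by limma). Its mean thus lay on the other side of 0 from those of the other chains of its trimer, and after median centring it was called higher (mean 0.72, adjusted p = 0.0262 by limma).

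The array holds 10 spots of this Lamc1 probe. On replicate 2 they ran from -0.14 to 0.05, and on replicate 3 from 0.16 to 0.46. The spread of these spots leaves out the error of labelling and hybridization, which every spot of an array shares. A second, dimmer Lamc1 probe with 1 spot gave ratios of 0.11, 0.17 and 0.15, above 0 on all 3 arrays and highest on replicate 2. The probes of Lamc1 thus disagree on the order of the arrays. Lama1 was not well above background on any array, and Lama2, Lama3, Lama4 and Lamb1 had no matched probe.

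Nid2 encodes nidogen-2, which ties the laminin network to collagen IV. Its ratios were 0.14, 0.10 and 0.23 (mean 0.15, SD 0.07, adjusted p = 0.114 by limma), above 0 on all 3 arrays and short of the threshold. After median centring it was called higher (mean 0.71, adjusted p = 0.0202 by limma). Agrn encodes agrin, a heparan sulfate proteoglycan of the glomerular basement membrane, and had ratios of -0.29, -0.09 and -0.17 (mean -0.19, SD 0.10, adjusted p = 0.0849 by limma). It was below 0 on all 3 arrays, but after median centring it was called higher (mean 0.58, adjusted p = 0.0235 by limma). Nid1 and Hspg2 (perlecan) had no matched probe.

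Col18a1 fell. It encodes collagen XVIII, a proteoglycan of basement membranes whose end piece is endostatin. The ratios were -0.59, -0.21 and -0.30 on replicates 1, 2 and 3, lower in G200 on all 3 arrays. The mean was -0.36 (SD 0.20), or 0.778-fold, with an adjusted p of 0.0249 by limma, whereas median centring put the gene 0.07 above the median of all genes. With the deposited ratio the mean was -0.29 (adjusted p = 0.104 by limma). Without replicate 1 it was -0.25 (adjusted p = 0.0814 by limma), and without replicate 3 it was -0.40 (adjusted p = 0.107 by limma). The fall was thus seen on every array but was not called on every pair of arrays. Col15a1 encodes the closely related collagen XV and had ratios of 0.04, -0.06 and -0.01 (mean -0.01, SD 0.05). These lay near 0 on each array. Col8a1, a network collagen of vessel walls that was put in neither class, was not well above background on any array.

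The 250 bases before the start of Col18a1 are shown because it was the basement membrane gene that was called (build GRCr8, chr20:11473395-11473644, + strand, from the same RefSeq table). Capitals again mark GGGCGG, here on the other strand.
Col18a1: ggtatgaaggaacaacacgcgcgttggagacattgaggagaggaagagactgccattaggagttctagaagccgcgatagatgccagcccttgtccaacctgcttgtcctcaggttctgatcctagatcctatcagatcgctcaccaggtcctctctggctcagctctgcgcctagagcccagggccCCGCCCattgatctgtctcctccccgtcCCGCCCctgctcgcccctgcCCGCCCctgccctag

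This window held 3 matches to GGGCGG, the nearest beginning 15 bases before the start, and none to CCAAT or TATAAA. A match is a description of the letters only. The table used held no window for Col14a1.

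The interstitial and the basement membrane genes were then compared on each array. For the 10 interstitial genes the median was 0.03, -0.23 and 0.16 in array order. That of the 9 basement membrane genes was -0.00, -0.09 and -0.01, and that of all genes was -0.06, -0.04 and -0.05. The interstitial median was the higher on replicates 1 and 3 and the lower on replicate 2. The difference was 0.04, -0.14 and 0.17, with a mean of 0.02 ± 0.15 (SD, n = 3 arrays). The classes therefore differed in no constant direction, and the mean difference was smaller than its spread. In the interstitial class 2 of 10 genes were called (20%) and in the basement membrane class 1 of 9 (11.1%), both under the 37.5% of all genes. Without Fbn1, which passed the filter through the channel where it is higher, the interstitial count is 1 of 9 as well.

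The spread between arrays was wider for the interstitial genes. The median SD over the 3 arrays was 0.22 for the interstitial genes, 0.10 for the basement membrane genes and 0.12 for all genes. Replicate 2 gave the lowest ratio for 9 of the 10 interstitial genes and for 6 of the 9 basement membrane genes, against 32.7% of all genes. It did so too for 7 of 9 macrophage markers (77.8%, median SD 0.23) and 13 of 20 genes of collagen synthesis (65%), so this order of the arrays is not particular to the matrix genes. The spread was wider in the G200 channel. Its median SD between arrays was 0.25 for the interstitial genes and that of the control channel was 0.11 (0.13 and 0.06 for all genes). On replicate 2 also fewer spots were well above background in the G200 channel, 56.6% against 63% and 61% on replicates 1 and 3. The part of signal strength in the low interstitial values of that array was not tested.

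**Figure D2:**
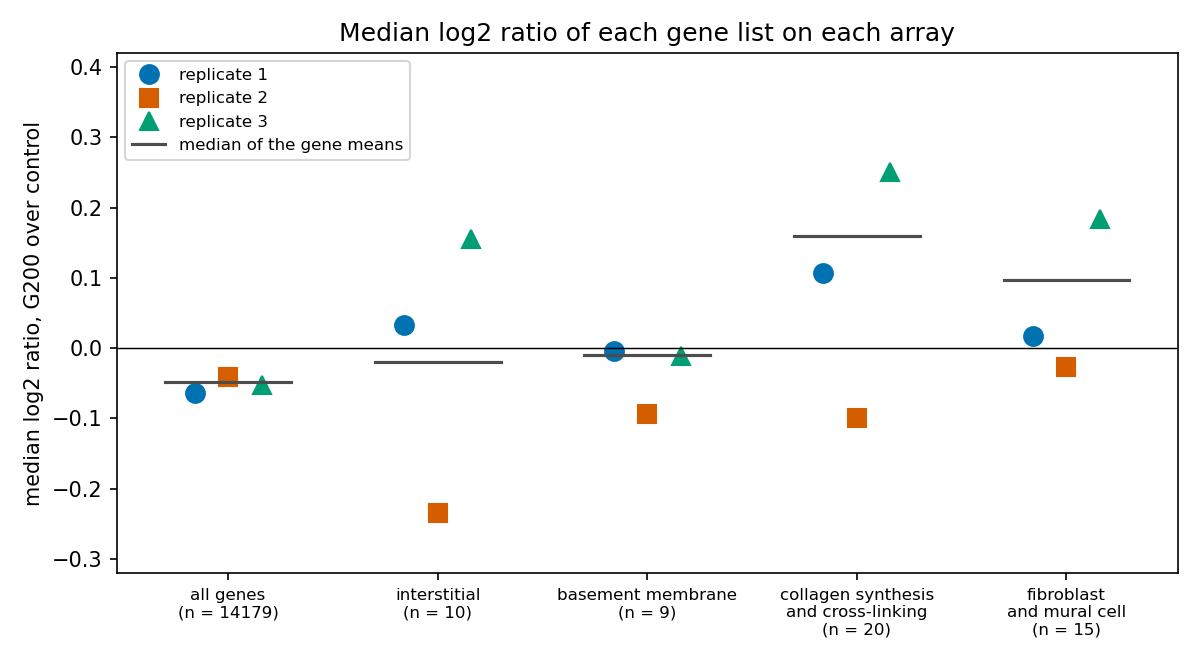
Median log2 ratio of G200 over control (y axis) on each array for all genes, the 2 matrix classes, the collagen synthesis and cross-linking list and the fibroblast and mural cell list, with a line at the median of the gene means. The interstitial medians run from -0.23 on replicate 2 to 0.16 on replicate 3, while those of all genes stay between -0.06 and -0.04.

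Cells that make the interstitial matrix were followed through 15 tested marker genes of fibroblasts and mural cells. Of these, 2 were called higher and 2 lower (26.7%, against 37.5% of all genes), and the median was 0.10. The list's summed signal gave log2 ratios of -0.00, 0.13 and 0.12 in array order, and its brightest gene was S100a4 (-0.27, 0.13 and -0.28). The median of the list was 0.02, -0.03 and 0.18, and 8 of its 15 genes were lowest on replicate 2 (53.3%, against 32.7% of all genes). The median was thus lowest on the array where the interstitial median was, and the sum was not. The genes named as called from this and the further lists were picked from those with 1 sign on all 3 arrays. Their shared sign is thus no added support. Dcn, the small proteoglycan decorin that coats collagen fibrils, had ratios of 1.12, 0.70 and 1.44 (mean 1.09, 2.13-fold, adjusted p = 0.00307 by limma). Pdgfra, a receptor of interstitial fibroblasts, had ratios of 0.38, 0.34 and 0.61 (mean 0.45, adjusted p = 0.00863 by limma). Both were called higher after loess, while Col1a1, Col1a2 and Col3a1, genes of the same cells, were called only without loess. After median centring those collagens were called higher (means 0.57, 0.86 and 0.80, adjusted p = 0.0302, 0.0245 and 0.0354 by limma). Pdgfra was not called without replicate 3 (adjusted p = 0.0761 by limma). Cspg4 (mean -0.32) and Notch3 (mean -0.26), both of mural cells, were the 2 called lower, and neither was called after median centring (relative log2 ratios -0.11 and -0.46, below the median of all genes), without replicate 1 or without replicate 3. With the deposited ratio Cspg4 was not called (adjusted p = 0.0572 by limma). Cnn1, Fap, Thy1, Gli1 and Lum did not pass the filter. In RNA of tissue with many cell types, fewer cells of a type and less RNA per cell cannot be told apart.

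Markers of other kidney cells were read in the same way. The endothelial, proximal tubule, distal nephron and macrophage lists each had a smaller share called in either direction (18.2% to 30.8%) than all genes (37.5%). Of 11 endothelial genes 1 was called higher (Ramp2, mean 0.32) and 1 lower (Pecam1, mean -0.56), with a median of -0.00. Of 13 proximal tubule genes 4 were called higher (30.8%, against 11.6% of all genes called higher) and none lower, with a median of 0.09. Median centring, under which 80% of all called genes were higher, called 10 of the 13 higher. The list median then lay 0.56 above that of all genes. With the deposited ratio 2 of the 13 proximal tubule genes were called higher, and without replicate 3 only 1 was. Without replicate 1, 3 were called higher and 1 lower. Of 11 distal nephron genes 1 was called higher (Umod, mean 0.87) and 1 lower (Slc4a1, mean -0.68), with a median of 0.15. Of 9 macrophage genes 1 was called higher (Lyz2, mean 0.60) and 1 lower (C1qb, mean -0.43), with a median of 0.07. Proximal tubule and distal nephron markers were thus present, as the label of the tissue says. Without at least 1 of the arrays, the calls of Ramp2, Lyz2 and C1qb were lost. Median centring ended those of Pecam1, Slc4a1 and C1qb, which still lay below the median of all genes (relative log2 ratios -0.13, -0.28 and -0.04). The part of these cell types in the values of the matrix genes was not tested.

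Of 25 collagen genes outside the list of 36, 10 had a matched probe and 6 were tested. None was called higher and 3 were called lower (50%, against 25.9% of all genes called lower), with a list median of -0.13. Under a filter on both colours 2 of 5 were called lower and the list median was -0.04. Col9a1, called lower after loess (mean -0.23), was not tested there. With so few genes the share is not read further. Col11a2, a chain of the minor fibrillar collagen XI, had ratios of -0.58, -0.42 and -0.46 (mean -0.49, adjusted p = 0.00428 by limma). Its mean was -1.42 with the deposited ratio and -0.79 with an offset of 16. Col5a3, a further chain of collagen V, had ratios of -0.25, -0.22 and -0.31 (mean -0.26, adjusted p = 0.0252 by limma). Both means lay below 0, unlike that of Col5a1. Col5a3 was not called without replicate 1, without replicate 3 or after median centring (means -0.26, -0.23 and -0.24, adjusted p = 0.0697, 0.178 and 0.120 by limma), nor with separate channels. Leaving out replicate 1 or 3 thus hardly moved its mean. After median centring Col5a3 lay further below the median of all genes than after loess (relative log2 ratios -0.51 and -0.21). Its mean was -0.73 with the deposited ratio, -0.43 with an offset of 16 and 0.11 with no dye normalization.

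Of 22 other matrix glycoproteins tested, 3 were called higher and 2 lower (22.7%, against 37.5% of all genes), with a median of -0.04. Under a filter on both colours 20 were tested, with 2 called higher and 2 lower. Mgp, which keeps matrix from calcifying, had ratios of 0.96, 0.19 and 0.83 (mean 0.66, adjusted p = 0.0180 by limma). Tinag, a tubular basement membrane protein, had ratios of 0.48, 0.45 and 0.37 (mean 0.43, adjusted p = 0.00519 by limma). Its relative Tinagl1 was called lower (mean -0.29, adjusted p = 0.0230 by limma), but lay 0.13 above the median of all genes after median centring. Tinagl1 was not called with the deposited ratio or without any 1 array. Mgp was not called without replicate 3 (adjusted p = 0.115 by limma).

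Vtn encodes vitronectin, a matrix and plasma protein made chiefly in the liver, and had ratios of -1.53, -2.76 and -3.73 (mean -2.67, adjusted p = 0.00397 by limma). Markers of liver moved with it. All 14 liver genes tested were called lower, with a median of -3.03, and their summed signal had a log2 ratio of -1.77, -3.31 and -4.77. With robust eBayes, which leaves the means unchanged, neither Vtn nor any of the 14 was called. The brightest of them was Tf (mean -2.53), and Cps1 did not pass the filter. Replicate 3 was the lowest of the arrays for Vtn and for all 14 liver genes. Among the matrix genes only Lamb2 was lowest on that array, and Fn1, whose plasma form the liver also makes, was at 0.01 there. The part of liver RNA in the value of Vtn was not tested.

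Collagen is built by a set of enzymes in and outside the cell. Of 20 genes of synthesis and cross-linking tested, 4 were called higher and 5 lower, 45% against 37.5% of all genes, and 11 were not called, with a median of 0.16. This share is near that of all genes. Crtap, which encodes a partner of prolyl 3-hydroxylase 1 in the endoplasmic reticulum, had ratios of -1.19, -0.82 and -1.31 (mean -1.11, 0.465-fold, adjusted p = 0.00141 by limma). Bmp1, the protease that trims the end of procollagen, had ratios of -0.75, -0.79 and -0.89 (mean -0.81, adjusted p = 0.00108 by limma). After median centring both lay below the median of all genes (relative log2 ratios -0.63 and -0.48) but were not called. P4hb, the beta subunit of prolyl 4-hydroxylase, had ratios of 1.24, 0.37 and 0.68 (mean 0.76, adjusted p = 0.0139 by limma). Colgalt1, which adds galactose to collagen hydroxylysine, had ratios of 0.47, 0.33 and 0.42 (mean 0.41, adjusted p = 0.00697 by limma). Neither P4hb nor Colgalt1 was called without replicate 3 (adjusted p = 0.0723 and 0.0690 by limma).

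Of 22 matrix-degrading enzymes and their inhibitors tested, 7 were called higher and 4 lower (50%, against 37.5% of all genes), with a median of 0.05. Without replicate 3, which left 11.4% of all genes called, 1 of the 22 was called higher and 2 lower. Mmp2, a gelatinase that cuts collagen IV, had ratios of 0.74, 0.34 and 0.96 (mean 0.68, adjusted p = 0.00850 by limma). Mep1a, a subunit of the brush border protease meprin, had ratios of 0.69, 0.47 and 0.61 (mean 0.59, adjusted p = 0.00282 by limma). Mmp2 was not called without replicate 3 (adjusted p = 0.0599 by limma). Plat, the tissue plasminogen activator, had ratios of -0.47, -0.50 and -0.53 (mean -0.50, adjusted p = 0.00315 by limma), and after median centring it was 0.06 below the median of all genes (relative log2 ratio -0.06) and not called. Plg, the liver-made plasminogen, had ratios of -1.88, -2.96 and -3.77 (mean -2.87, adjusted p = 0.00204 by limma). Its array order was that of Vtn and of the liver list given above.

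Receptors tie cells to this matrix. Of 20 tested, 7 were called higher and 3 lower (50%, against 37.5% of all genes), with a median of 0.09. Without replicate 3, 1 of the 20 was called higher and 2 lower, and without replicate 1, 1 was called higher and 3 lower. Itgb5, an integrin chain that binds vitronectin, had ratios of 0.58, 0.40 and 0.24 (mean 0.41, adjusted p = 0.0135 by limma). Bcam, a receptor of the laminin alpha 5 chain, had ratios of 0.60, 0.23 and 0.27 (mean 0.37, adjusted p = 0.0250 by limma). Bcam was thus higher while its ligand gene Lama5 lay below 0, and it was not called without replicate 1 or without replicate 3 (adjusted p = 0.0796 and 0.0968 by limma). Itgb4, the laminin-binding chain of hemidesmosomes, had ratios of -0.74, -0.45 and -0.72 (mean -0.64, adjusted p = 0.00341 by limma). Sdc1, the proteoglycan syndecan-1, had ratios of -0.65, -0.55 and -0.38 (mean -0.52, adjusted p = 0.00480 by limma). After median centring these 2 genes lay below the median of all genes (relative log2 ratios -0.42 and -0.19) and were not called.

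TGF-beta is the main known inducer of interstitial collagen. Of 13 genes of its signalling tested, 1 was called higher and 2 lower (23.1%, against 37.5% of all genes), with a median of -0.11. Ccn2, a connective tissue growth factor that TGF-beta induces, had ratios of 0.81, 0.76 and 0.23 (mean 0.60, adjusted p = 0.0135 by limma). Ccn1, a related matrix protein, had ratios of -0.995, -0.34 and -0.73 (mean -0.69, adjusted p = 0.00945 by limma). After loess these relatives were called in opposite directions, but after median centring Ccn1 was not called, though still below the median of all genes (relative log2 ratio -0.35). Each lost its call without 1 array, Ccn2 without replicate 2 (adjusted p = 0.0634 by limma) and Ccn1 without replicate 3 (adjusted p = 0.0699 by limma). Smurf1, a ubiquitin ligase that marks TGF-beta receptors for decay, was called lower (mean -0.26, adjusted p = 0.0355 by limma) but not without any 1 array, with the deposited ratio (adjusted p = 0.0779 by limma) or with the mean over probes. After median centring it was not called either, and lay below the median of all genes (relative log2 ratio -0.19).

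**Figure D3:**
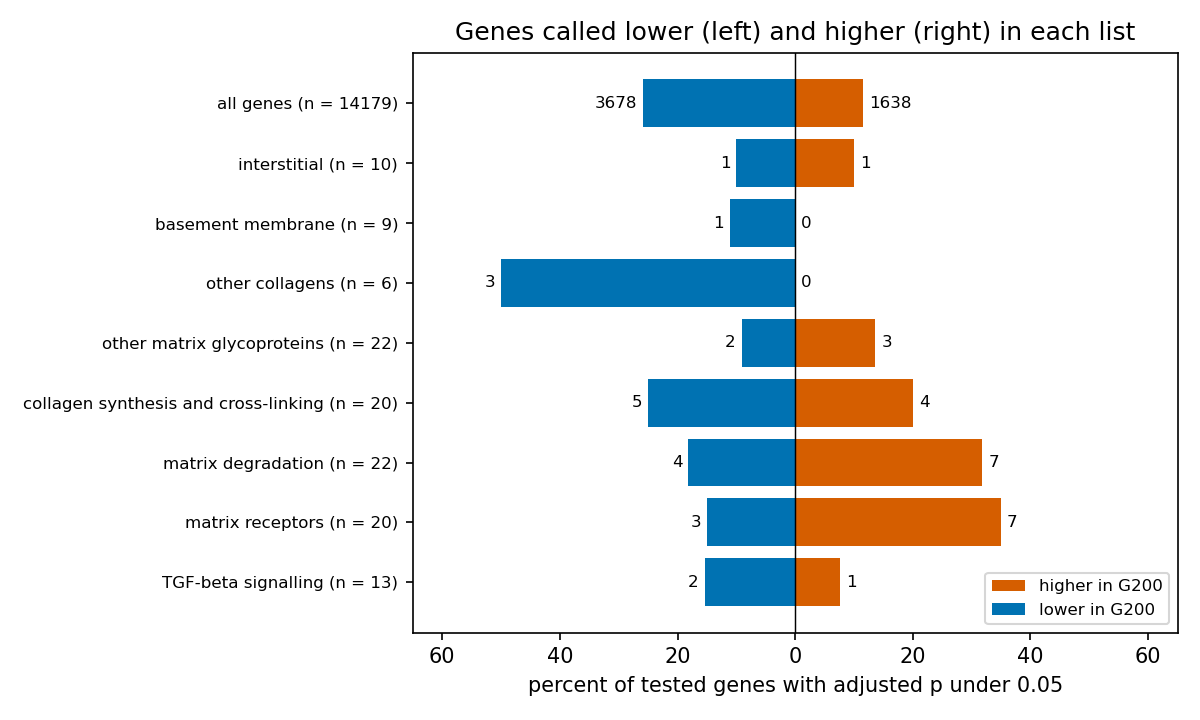
Percent of tested genes with a limma adjusted p under 0.05 (x axis), lower in G200 to the left and higher to the right, for all genes, the 2 matrix classes and 6 lists of related genes, with the count at each bar. Matrix classes (10 and 9 genes) have 1 called gene or none per direction. The degradation and receptor lists have 7 higher of 22 and of 20, and 1 each without replicate 3. Of all genes 11.6% were called higher.

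Among the matrix genes, the sign under the deposited ratio, which Feature Extraction made with its own background and dye steps, was that after loess for all but Col6a2 (0.01) and Col15a1 (0.08). Fbn1 and Col14a1 then passed the 2-fold criterion, which 13.6% of all genes met under that ratio. The 3 genes called after loess had a call in 10 of 13 alternative settings for Fbn1, in 10 of 14 for Col14a1 and in 8 of 14 for Col18a1. For Col18a1 the call was lower in 7 of these and higher with no dye normalization (mean 0.69, adjusted p = 0.0197 by limma).

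**Figure D4:**
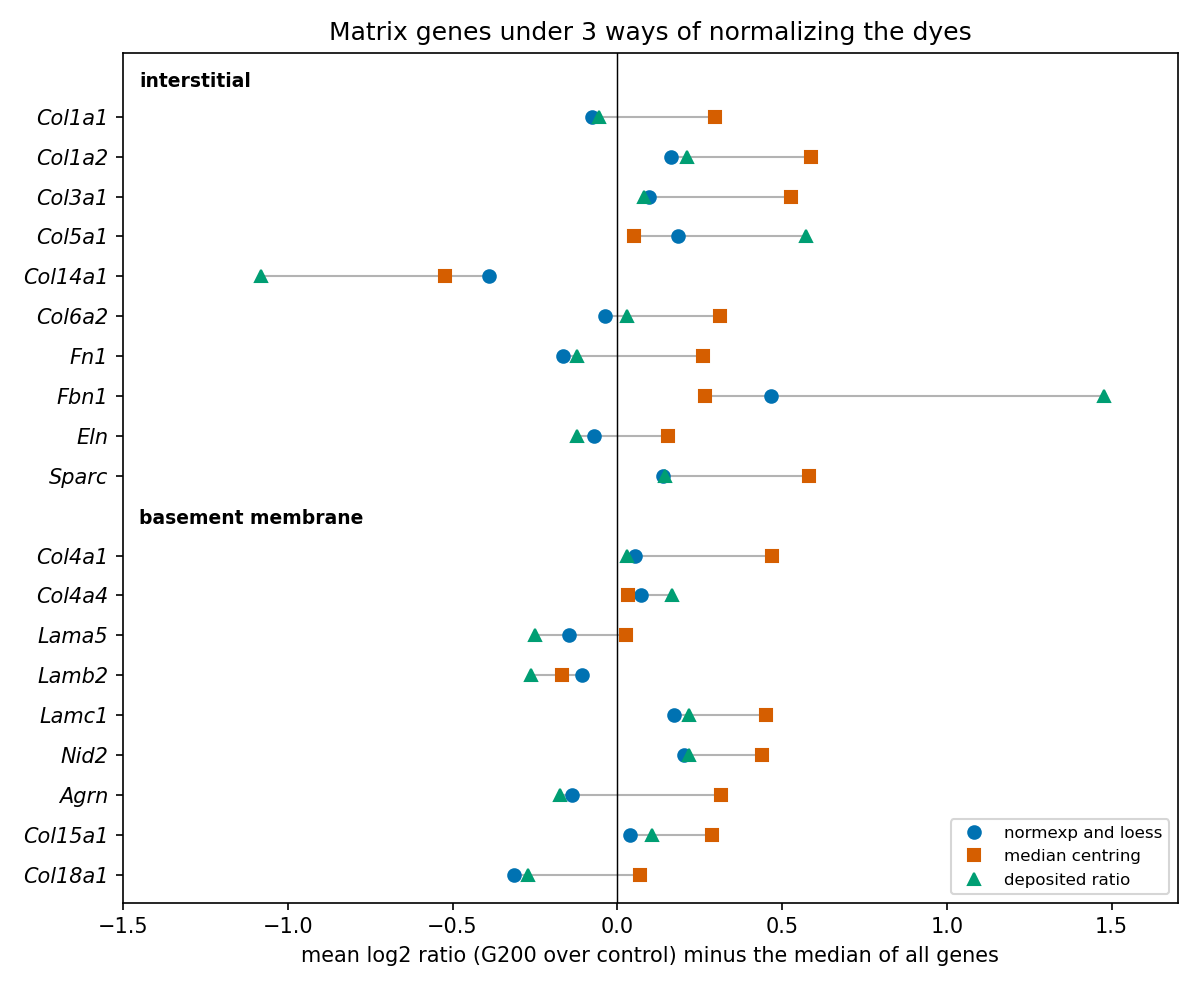
Mean log2 ratio of G200 over control minus the median of all genes (x axis) for the 19 matrix genes under the loess fit, under median centring and with the deposited ratio. Most genes sit further right under median centring, where Col1a1, Col6a2, Fn1, Eln, Lama5, Agrn and Col18a1 cross 0, and Fbn1 and Col14a1 lie farthest out with the deposited ratio.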

How the data were processed

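The authors scanned 3 Agilent rat arrays with 2 colours and deposited the output of Feature Extraction (version 11.5.1.1 in the file headers, 9.3.2.1 in the submitters' processing notes). The deposited files give the median intensity of each spot and its local background, uncorrected, and a log10 ratio of red over green that the authors' software corrected for background and dye. Deposited marks of other kinds (control type, outlier, saturated, well above background) were used as filters. From these intensities, limma 3.58.1 in R 4.3.3 corrected the background (normexp, offset 50) and normalized the dyes by loess within each array. Control spots and outlier spots (635, 736 and 945) were left out, and no spot was saturated. Replicate spots were averaged. Of 30367 probes, 18355 were matched by accession to a symbol in the RefSeq table of GRCr8, and 15647 probes passed the filter (1 colour, green or red, well above background on each of the 3 arrays). The brightest probe stood for its gene. Each mean log2 ratio was tested against 0 with lmFit and eBayes, two-sided. The number of arrays limits the precision. The array is the pair of control and G200, and separate channels were an alternative. The steps were tested on simulated data. The members and lists were chosen with earlier results of these data known. Every member was named, and from each further list the 2 highest and 2 lowest genes among those called with 1 sign on all arrays. The shared sign of those list genes was thus fixed by the choice. The proximal tubule list was given by its counts and median alone, other genes were named for liver, and the results of the podocyte list were left out. Alternatives were median centring, no dye normalization, an offset of 16, no background correction, the deposited ratio, filters on both colours and none, the mean over probes, robust eBayes, an ordinary t-test of the log ratios, and leaving out each array.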

Additional observations from a re-analysis of the deposited data

How the results depend on the processing

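The mean difference between interstitial and basement membrane medians stayed within 1 SD of its value under the 14 alternatives, from -0.05 to 0.10, and it was not tested. Robust eBayes, the ordinary t-test and separate channels change only the test and could not move it from 0.02. Of the single matrix genes, results kept their direction and side of the threshold in 209 of 265 comparisons with an alternative (30 reversed, 15 gained and 11 lost a call), and the causes of the other changes were not tested. Medians of groups of matrix genes in this section were taken on each array and then averaged over the arrays. After loess they were 0.07, -0.44, -0.09, -0.01, 0.01, -0.14, -0.02 and -0.19, in the order given next for median centring. Median centring called 10 matrix genes. It gave medians of 0.68 for fibrillar collagens, -0.25 for collagen XIV, 0.58 for collagen VI, 0.54 for interstitial glycoproteins, 0.52 for collagen IV, 0.30 for laminins, 0.65 for basement membrane linkers (Nid2 and Agrn) and 0.45 for collagens XV and XVIII. It turned Col1a1 (0.57), Col6a2 (0.58), Fn1 (0.53), Eln (0.42), Lama5 (0.30), Lamb2 (0.10), Agrn (0.58), Col15a1 (0.56) and Col18a1 (0.34). With no dye normalization, where the median of all genes was 0.62, 17 matrix genes and 72 genes of the 6 pathway lists were called, against 3 and 41. The medians, in the same order, were 1.03, 0.10, 0.93, 0.89, 0.87, 0.65, 1.00 and 0.80. Col1a1 (0.92), Col14a1 (0.10), Col6a2 (0.93), Fn1 (0.88), Eln (0.77), Lama5 (0.65), Lamb2 (0.45), Agrn (0.93), Col15a1 (0.91) and Col18a1 (0.69) turned. An offset of 16 gave -0.64 for collagen XIV and -0.012 for Col4a1, and no background correction gave -0.0040 for Col4a1. The deposited ratio gave medians of -1.10 for collagen XIV, -0.23 for laminins and -0.10 for collagens XV and XVIII, and turned Col6a2 (0.0086) and Col15a1 (0.084). With no filter on dim probes the laminin median was -0.043.

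An ordinary t-test of the log ratios, which is not the test between groups that the study names, called 0 matrix genes and 0 pathway genes after adjustment (limma 3 and 41), with 1 matrix gene at an unadjusted p under 0.05. The fit of separate channels with no replicate block called 1 matrix gene and 24 pathway genes, and 4096 genes in all. Leaving out 1 array gave 0 to 4 matrix genes called and 13 to 37 pathway genes, and it called 1611 genes in all without replicate 3. Values ranged from -0.093 to 0.37 for Sparc, from -0.027 to 0.24 for Col1a2, from -0.11 to 0.21 for Col3a1, from -0.079 to 0.089 for Col4a1, from -0.028 to 0.063 for Col4a4 and from -0.037 to 0.016 for Col15a1. Signal over background limits the ratios of Fbn1 and Col14a1, whose size moves with the background step, as does that of Col5a3 and Col11a2. Levels of control rats were not replicated, and with 3 arrays of 1 dye orientation, an effect of the dye and one of GABA cannot be told apart.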
